A study of Mus musculus with 8 samples.

Results

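This report follows 6 genes known as markers of the choroid plexus, Ttr, Otx2, Folr1, Kl, Clic6 and Enpp2, in cells of embryonic mouse cortex and lung that were sorted for GFP. Members were taken by name. Where several probe sets were annotated to a gene alone, the one whose mean over the 8 arrays was highest stood for it, and 5 of the 6 genes had such a probe set, out of 18193 genes in all. Enpp2, which encodes the secreted lysophospholipase autotaxin, is not analysed here. The embryos were homozygous for Tie2-GFP, in which regulatory sequence of Tek, an endothelial receptor gene, drives green fluorescent protein, and were taken at E13.5 (days of embryonic development, the day of the vaginal plug counting as 0.5). Cortex and lung carried the same transgene, there was no GFP-negative group, and each array held 1 tissue of a litter of 10 to 13 pooled embryos, with 4 arrays per tissue. The promoter is known to be active in part of the blood cell lineage as well as in endothelium.

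The choroid plexus is a folded sheet of secretory epithelium over leaky capillaries that grows from the dorsal midline of each brain ventricle and makes cerebrospinal fluid. In the telencephalon its epithelium arises beside the cortical hem, a strip of the medial cortex that secretes Wnt and BMP signals. Its epithelial cells are known for very high levels of transthyretin, the Ttr product, and depend on the homeodomain factor Otx2. Folr1 carries folate into the fluid, Kl is a co-receptor for endocrine fibroblast growth factors, and Clic6 belongs to the chloride intracellular channel family. Per the labels' protocols the plexus and the meninges were removed from the cortex before dissociation, so the marker genes ask how much RNA of this kind the sorted cortex samples still held.

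The deposited values were log2 expression values per probe set, with array medians between 6.59 and 6.72, and precision is limited by how few arrays there are. Both tissues had samples numbered 72, 22, 19 and 18, and groups follow the titles, source names and tissue labels. The description field of the samples numbered 19 and 18 names the other tissue. Expression followed the titles, since the mean of 23 measured genes of cortical neurons and progenitors lay between 10.63 and 11.21 on every cortex array and between 5.85 and 6.15 on every lung array, and all 23 were higher in cortex (median difference 5.53). The pan-endothelial list (24 genes) had array means of 9.79 (cortex 72), 11.14 (cortex 22), 11.24 (cortex 19) and 9.35 (cortex 18), against 11.21 to 11.84 in lung. Of these 24 genes, 6 were higher in lung and 0 in cortex, with a median difference of -1.13. By limma at an unadjusted p under 0.05 the counts were 16 in lung and 0 in cortex. Leaving out cortex 72 gave 3 higher in lung and leaving out cortex 19 gave 11. The lectin Clec14a (-3.14) and the sialomucin Emcn (-2.21) led them. All differences are cortex minus lung. In such bulk samples, fewer cells of a type and less RNA per cell cannot be told apart.

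Ttr and Otx2 were higher in cortex, and Folr1, Kl and Clic6 were not called in either direction. Calls were made with limma across all genes at a Benjamini-Hochberg adjusted p under 0.05. Thus 2 of the 5 measured markers were higher in cortex and 0 in lung, where over all genes 10.4% were called higher in cortex, 7.71% higher in lung and 18.1% in either direction. For the same 2 markers no cortex array overlapped a lung array, while 12.5% of all genes lay higher on every cortex array than on any lung array and 24.5% were separated in either direction. The split of all calls, 1888 higher in cortex and 1403 in lung, became 1660 and 1732 after centring each array on its median, and 5241 and 137 when they were shifted to one mean of the pan-endothelial list. Before adjustment Kl also passed in limma, as the 1 marker higher in lung. The count of markers higher in cortex was 1 without cortex 72 and 1 without lung 22, and without lung 72 Kl was added as higher in lung. With the arrays numbered 19 and 18 left out of both tissues, which leaves 2 against 2, the count was 0.

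**Figure D1:**
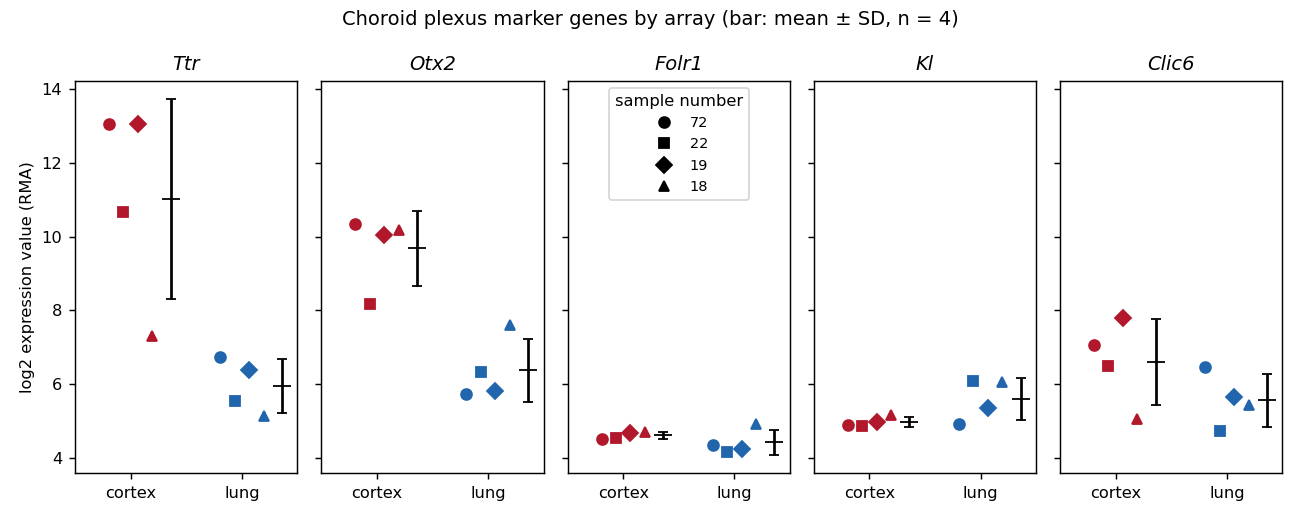
Log2 expression value of the 5 measured markers on each array (red, cortex; blue, lung; the symbol gives the sample number; black bars are the mean ± SD, n = 4). Ttr runs from 7.30 to 13.06 over the cortex arrays, Otx2 is above every lung array on all 4 cortex arrays, and Folr1 and Kl lie low on all 8 arrays.

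Ttr encodes transthyretin, the carrier of thyroid hormone and of retinol-binding protein in cerebrospinal fluid and plasma. Its level was 13.06 on cortex 72, 10.67 on cortex 22, 13.05 on cortex 19 and 7.30 on cortex 18. On the lung arrays it was 6.73 (72), 5.55 (22), 6.37 (19) and 5.12 (18). Cortex 72 and cortex 19 were high and nearly equal, cortex 22 lay between, and cortex 18 lay only 0.58 above the highest lung array. Against the lung mean of 5.94, Ttr was 139-fold higher on cortex 72, 138-fold on cortex 19, 26.6-fold on cortex 22 and 2.57-fold on cortex 18.

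The mean of Ttr was 11.02 ± 2.72 in cortex and 5.94 ± 0.74 in lung (log2 value ± SD, n = 4 each), a difference of 5.08 (SE 1.19, 33.9-fold, limma adjusted p = 0.0187, 95% confidence interval 2.38 to 7.78). The exact two-sided permutation test of this gene alone gave p = 0.0286, the smallest that 4 against 4 arrays allow. The fit assumes equal spread in both tissues, whereas the SD of Ttr was 3.69 times larger in cortex. The call was lost without cortex 72 (4.40, adjusted p = 0.0531), without lung 22 (4.95, adjusted p = 0.0504) and without both arrays of numbers 19 and 18 (5.73, adjusted p = 0.0504). Without cortex 18 the difference was 6.32 (adjusted p = 0.00073).

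The remaining Ttr probe sets had the same shape over the cortex arrays. All 4 were highest on cortex 72 and cortex 19, lower on cortex 22 and lowest on cortex 18. Probe set 1459737_s_at read 12.65, 9.47, 12.59 and 5.67 on cortex 72, 22, 19 and 18, and 1451580_a_at read 11.80, 8.87, 11.89 and 6.37. For both of these, cortex 18 lay within the range of the lung arrays, which reached 6.40 and 6.39. Differences of the 4 probe sets ran from 3.53 to 5.25, and over all 45037 probe sets 2 of the 4 passed limma (adjusted p = 0.0224 and 0.0268) and 2 did not (adjusted p = 0.066 and 0.0816).

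**Figure D2:**
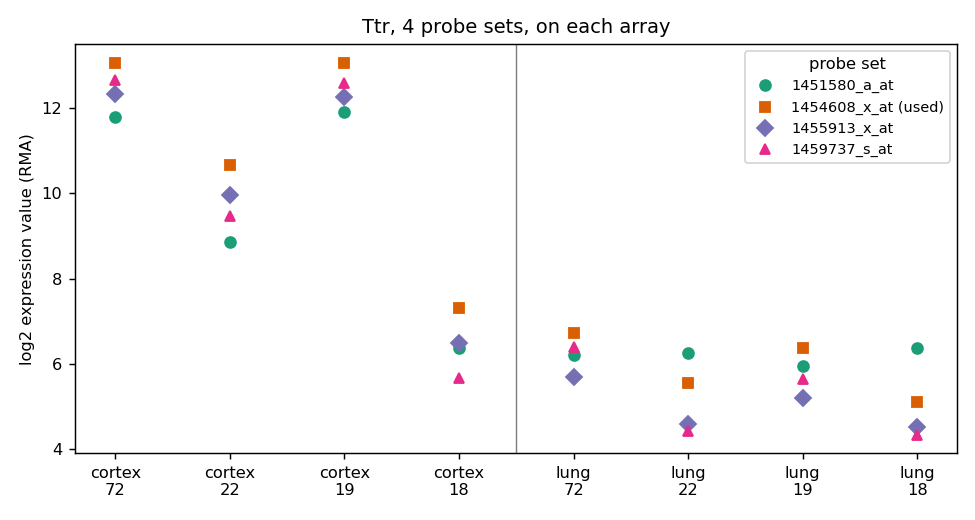
Log2 expression value of the 4 probe sets annotated to Ttr alone, on each of the 4 cortex and 4 lung arrays; the one marked as used had the highest mean. All 4 are high on cortex 72 and 19, intermediate on cortex 22 and near the lung arrays on cortex 18.

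Otx2 is a homeodomain transcription factor of the early forebrain and midbrain that is later kept in the choroid plexus, the cortical hem and the eye. Its level was 10.36 on cortex 72, 8.17 on cortex 22, 10.04 on cortex 19 and 10.18 on cortex 18. On the lung arrays it was 5.73 (72), 6.33 (22), 5.82 (19) and 7.60 (18). Every cortex array lay above every lung array, by 0.57 at the closest, between cortex 22 and lung 18. Cortex 22 stood below the other cortex arrays, while cortex 18, the array with the least Ttr, was as high as cortex 72 and 19.

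The mean of Otx2 was 9.69 ± 1.02 in cortex and 6.37 ± 0.86 in lung, a difference of 3.32 (SE 0.57, 9.96-fold, limma adjusted p = 0.00433, 95% confidence interval 2.02 to 4.61). The exact two-sided permutation test gave the smallest possible p, 0.0286. Leaving out single arrays gave differences of 3.09 to 3.82, all called. With both arrays of numbers 19 and 18 left out the difference was 3.23 without a call (adjusted p = 0.128). Lung 18, the lung array with the highest Otx2 value, also had the lowest weight when limma estimated array quality (0.317, against 0.565 to 3.58 on the rest), and without it the difference was 3.73.

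Folr1, the folate receptor of the choroid epithelium, was low on all arrays. It read 4.51, 4.53, 4.67 and 4.71 on cortex 72, 22, 19 and 18, and 4.36, 4.16, 4.22 and 4.92 on lung 72, 22, 19 and 18. The groups overlapped, with a difference of 0.19 (SE 0.19, limma adjusted p = 0.51, 95% confidence interval -0.23 to 0.61). Every value was below the median probe set of its array, which ranged as given above.

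Kl, which encodes the co-receptor alpha-klotho, was also below the array median on all 8 arrays. It read 4.89, 4.85, 4.97 and 5.17 on cortex 72, 22, 19 and 18, and 4.90, 6.08, 5.35 and 6.05 on lung 72, 22, 19 and 18. The groups overlapped through lung 72 alone, and the difference of -0.63 (SE 0.27) did not pass (limma adjusted p = 0.15). Without lung 72 it was -0.86 and passed (adjusted p = 0.0307). The second Kl probe set lay between 3.48 and 3.90 on all arrays, with a difference of -0.14. Shifting arrays to one pan-endothelial mean moved the median of all genes from -0.09 to 1.16 and turned Kl to 0.62.

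Clic6, which encodes a chloride intracellular channel protein abundant in choroid epithelium, varied in both tissues. It read 7.05, 6.49, 7.80 and 5.05 on cortex 72, 22, 19 and 18, and 6.46, 4.71, 5.65 and 5.43 on lung 72, 22, 19 and 18. The groups overlapped: cortex 72, 22 and 19 lay above every lung array, and cortex 18 lay below lung 72, 19 and 18. The difference of 1.03 (SE 0.58) did not pass (limma adjusted p = 0.266, 95% confidence interval -0.29 to 2.36). Without cortex 18 it was 1.55 (adjusted p = 0.0613), and after shifting arrays to one pan-endothelial mean it was 2.28 (adjusted p = 0.00128). In that shifted setting limma gave Ttr an adjusted p of 3.6e-24, although its cortex arrays still ranged over 5.32. P-values there followed the size of a difference more than the spread of a gene, so the call of Clic6 is weak. The second Clic6 probe set had the same order over the cortex arrays, 6.03 on cortex 19, 5.68 on cortex 72, 5.04 on cortex 22 and 4.11 on cortex 18, with a difference of 0.37.

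Among all 18193 genes Ttr had the largest range over the 4 cortex arrays, 5.76 log2 units or 54.1-fold, and the largest SD. The median gene had a cortex SD of 0.25. By cortex SD, Clic6 ranked 169, Otx2 364, Kl 14359 and Folr1 16240. The first rank of Ttr rested on cortex 18, since without that array Ttr ranged over 2.39 and ranked 61. It was kept without any other cortex array and after centring on medians, and pan-endothelial shifting made the rank 3 (range 5.32).

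**Figure D3:**
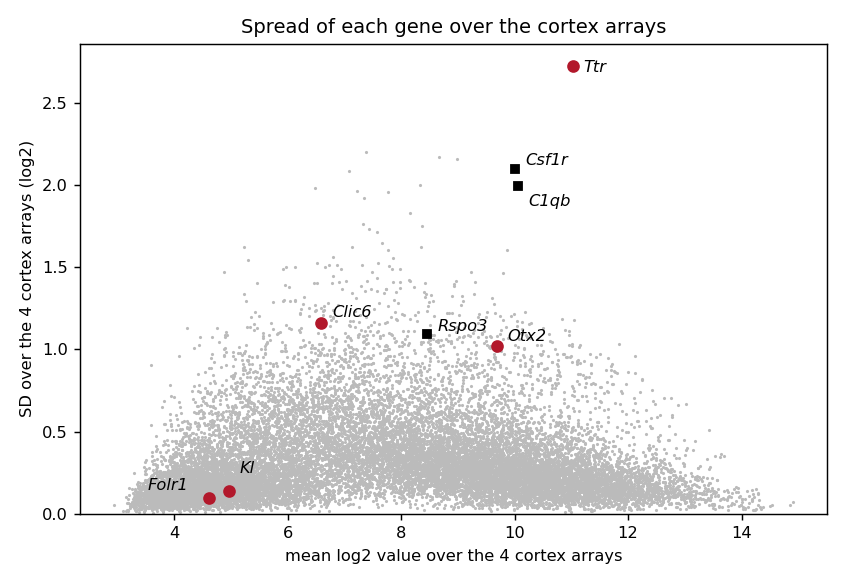
Mean log2 value (x) and SD (y) of every gene over the 4 cortex arrays; grey points are all 18193 genes, red points the 5 measured markers and black squares 3 further genes. Ttr lies at the top at an SD of 2.72, above Csf1r (2.10) and C1qb (2.00), while Folr1 (0.10) and Kl (0.14) lie near the bottom.

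Ttr was 1 of 12 genes with a cortex range of at least 4 log2 units. The others were Mrc1, Ccrl2, Lyz1, Rspo2, Ccl3, Tyrobp, Mpeg1, Csf1r, Pf4, C1qb and Cxcl2, named here after their values were seen. Most of these are known from macrophages and microglia, such as the mannose receptor Mrc1, the receptor Csf1r for colony stimulating factor 1 and the complement subunit C1qb. Rspo2 encodes a secreted R-spondin that strengthens Wnt signals and is made in the cortical hem.

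The genes nearest to each marker were found by the root mean square difference between log2 profiles over the 8 arrays, each centred on its own mean. A neighbour thus resembles its marker on these arrays by choice. For Ttr the nearest genes were Csf1r (0.86), the chemokine Ccl3 (0.94) and C1qb (0.97). Csf1r read 11.31, 10.63, 11.18 and 6.89 on cortex 72, 22, 19 and 18 and 4.57 to 7.18 on the lung arrays. It shared the drop on cortex 18 with Ttr, by 3.74 from cortex 22 where Ttr dropped by 3.37. It differed at cortex 22, which lay 0.68 below cortex 72 for Csf1r, 0.34 below for C1qb and 2.39 below for Ttr.

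The nearest genes to Clic6 were also genes of blood cells: the leukocyte antigen Cd52 (0.22), the leukocyte phosphatase Ptprc (0.39) and the myeloid receptor Gpr84 (0.41). The nearest to Otx2 were the glial glutamate transporter Slc1a2 (0.41), the secretory vesicle protein Ptprn2 (0.41) and the auxiliary receptor protein Shisa7 (0.46). These 3 genes were called higher in cortex by limma (3.43, 3.72 and 2.96), which follows from their choice by likeness to Otx2. For Kl, whose values spanned 1.23, the nearest were Phkg1 (0.10), Sult2a8 (0.11) and the coagulation factor F11 (0.12). Folr1 spanned less than 1 log2 unit and was not searched.

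**Figure D4:**
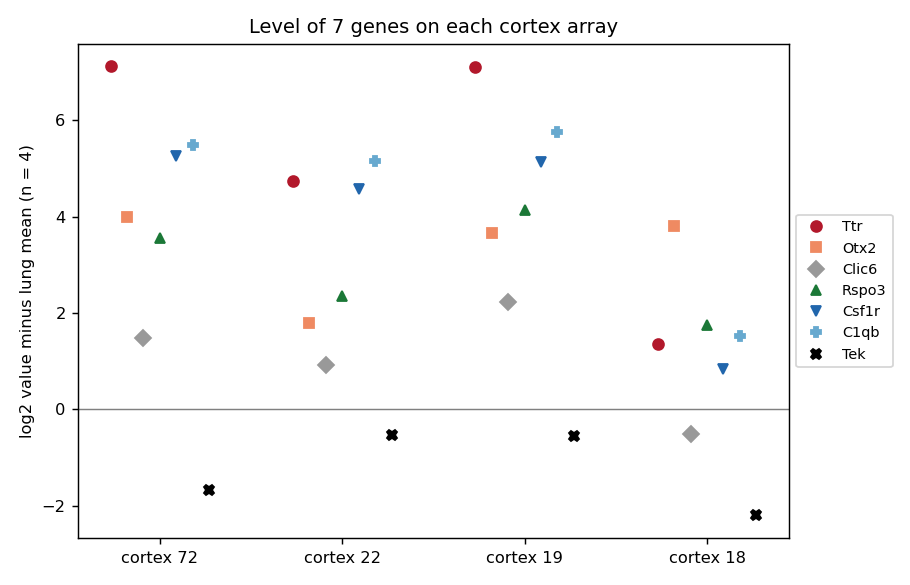
Log2 value minus the gene's lung mean (n = 4) for 7 genes on each cortex array; points are single arrays and the grey line marks the lung mean. All genes shown but Otx2 are lowest on cortex 18, where Otx2 is 3.81 above its lung mean. Tek is below its lung mean on all 4 arrays.

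The macrophage list shared the drop of Ttr on cortex 18, with a smaller step down on cortex 22 than Ttr. Its mean over 7 genes was 9.08 on cortex 72, 8.59 on cortex 22, 9.29 on cortex 19 and 5.89 on cortex 18, against 5.21 to 6.44 in lung. All 7 genes were at least 1 log2 unit lower on cortex 18 than on any other cortex array, as were Ttr and Clic6, while 1.62% of all genes were. So were Ecrg4 and Krt18 of 30 further choroid plexus genes, Msx1 of 14 hem genes, and Nos3 and Pecam1 of 24 pan-endothelial genes. The pan-endothelial mean was also lowest on cortex 18 (9.35). The pattern of 1 log2 unit was not planned but follows the drop of Ttr, which meets it by choice. The macrophage list also holds Csf1r and C1qb, nearest to Ttr in profile on these arrays, so its count is no independent support. Between tissues 4 of the 7 were higher in cortex and 3 were not called, where 10.4% of all genes were called higher in cortex. The median difference of the list was 2.37, and C1qb (4.48, limma adjusted p = 0.019) and Csf1r (3.95, limma adjusted p = 0.0293) led it. The number of calls moved with single arrays: it was 0 without cortex 72, 1 without cortex 22, cortex 19 or lung 22, 2 without lung 19 or lung 18, 3 without lung 72 and 6 without cortex 18. The median difference stayed between 2.03 and 3.04 when any 1 array was left out, and with numbers 19 and 18 left out of both tissues 4 genes were called (median 2.98). The part of these cells in the Ttr values was not tested.

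The R-spondins of the roof plate and hem list shared the other feature of Ttr, higher values on cortex 72 and 19 than on cortex 22 and 18. This pattern, with a margin of at least 0.5 log2 units, was chosen after seeing Ttr and held for 0.566% of all genes. It held for 4 of 14 genes of the list, Rspo1, Rspo2, Rspo3 and Wnt8b, and for 4 of 7 macrophage genes, Aif1, Csf1r, Fcgr3 and Lyz2. Among the markers it held for Ttr and Clic6, among 30 further genes of choroid plexus epithelium for Calml4, Kcne2 and Sulf1, among 14 meningeal genes for Col1a2 and Ptgds, and among 23 neural and 24 pan-endothelial genes for 0. Rspo3 read 9.05, 7.86, 9.64 and 7.25 on cortex 72, 22, 19 and 18, and was higher in cortex by 2.95 (limma adjusted p = 0.00514). Rspo2 read 7.82, 5.03, 9.68 and 5.83, and Wnt8b, a Wnt ligand of the hem, 8.63, 6.89, 9.23 and 7.71. Both were lowest on cortex 22, where Ttr was lowest on cortex 18, and neither differed between tissues with a call (limma adjusted p = 0.803 and 0.17). The part of hem cells in the Ttr values was not tested.

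Between tissues the hem list as a whole was mixed. Of 14 measured genes, Rspo3 rose in cortex, Bmp4 and Bmp6 were higher in lung and 11 were not called, with a median of -0.07 against -0.09 over all genes. The ligand Bmp4, which also patterns the lung, lay at 6.02 ± 0.80 in cortex and 10.51 ± 0.28 in lung, and Bmp6 at 5.16 ± 0.31 and 8.72 ± 1.17. Lmx1a, the roof plate factor, stayed between 3.85 and 4.11 on all arrays, below every array median. The median turned to 0.01 without cortex 22, and to 1.17 after pan-endothelial shifting, close to the 1.16 of all genes.

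Other genes of choroid plexus epithelium were called in both directions. Of 30 measured genes of this wider list, 3 rose in cortex, 7 were higher in lung and 20 were not called, with a median of -0.16. The cortex count is near the background, since 10.4% of all genes were called higher in cortex, and 7.71% were called higher in lung. The 3 were the bicarbonate transporter Slc4a10 (1.83, limma adjusted p = 0.000238), the monoamine transporter Slc29a4 (1.39) and the growth factor binding protein Igfbp2 (1.03). The 7 were the water channel Aqp1, Calml4, the lipopolysaccharide binding protein Lbp, the keratins Krt18 and Krt8, the peptidase Ace and the coagulation factor F5. Aqp1 lay at 6.34 ± 0.16 in cortex and 11.79 ± 0.19 in lung (-5.45, limma adjusted p = 4.95e-07), and Calml4 at 5.90 ± 1.05 and 10.26 ± 0.45 (-4.37). Aqp1 and Ace are also known from endothelium outside the brain. With pan-endothelial shifting 6 were higher in cortex and 4 in lung and the median was 1.08, still below that of all genes, and with numbers 19 and 18 left out 1 and 2.

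On all 4 cortex arrays 20 of these 30 genes lay below the median probe set, and 13 did on all 8 arrays. Transporters and channels typical of the mature plexus were among those not called. The potassium channel Kcnj13 differed by 0.09, the bicarbonate transporter Slc4a5 by -0.14, the claudin Cldn2 by -0.03, the serotonin receptor Htr2c by -0.31 and the Wnt and BMP antagonist Sostdc1 by 0.22. The channel subunit Kcne2 read 5.83 on cortex 72 and 5.07 on cortex 19, against 4.30 on cortex 22 and on cortex 18 and 4.21 to 4.52 in lung. With Calml4 and Sulf1 it was 1 of 3 genes of the list that were at least 0.5 log2 units higher on cortex 72 and 19 than on cortex 22 and 18. Calml4 and Sulf1 were lowest on cortex 22, where Ttr was lowest on cortex 18. The mean of the wider list was 6.26, 6.01, 6.22 and 5.92 on cortex 72, 22, 19 and 18.

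**Figure D5:**
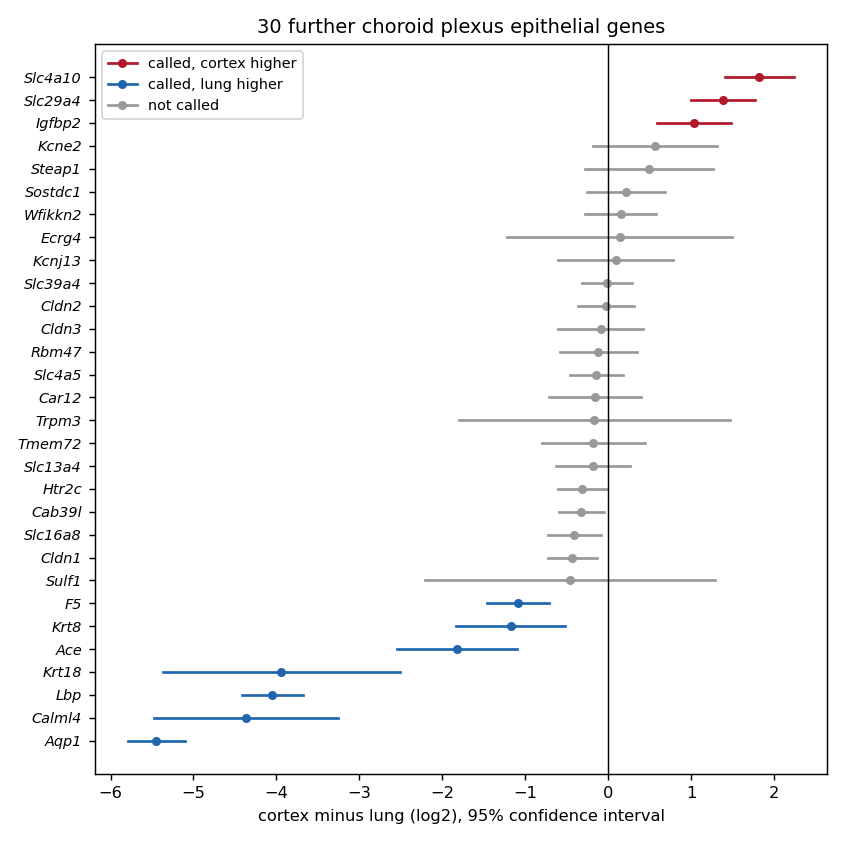
Cortex minus lung difference (log2) with its 95% confidence interval for 30 further genes of choroid plexus epithelium, from the limma fit over all genes. Slc4a10, Slc29a4 and Igfbp2 are called higher in cortex, 7 genes are called higher in lung, and Aqp1 lies lowest at -5.45.

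Lists of partners and relatives of the markers were described in the same way. Their counts stand beside the 10.4% of all genes called higher in cortex and the 7.71% called higher in lung. Among 6 measured retinol and thyroid hormone genes, 3 rose in cortex and 3 were not called (median 0.95): the thyroid hormone carrier Slco1c1 (5.64), the retinol receptor Stra6 (2.31) and the thyroid hormone receptor Thra. Slco1c1 was highest on cortex 22 (12.67) and cortex 19 (12.10) and lower on cortex 72 (11.29) and cortex 18 (10.51), an order unlike that of Ttr. Rbp4, the retinol carrier that binds transthyretin, differed by 0.35 without a call (limma adjusted p = 0.638).

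Of 6 genes listed with Otx2, Otx1 and Meis2 rose in cortex, Meis1 was higher in lung and the other 3 had no call (median 0.25, and -0.03 with the most variable probe sets). Otx1, the paralogue of Otx2 in cortical progenitors, read 6.77, 6.93, 6.60 and 6.29 on cortex 72, 22, 19 and 18 and 3.65 to 3.97 in lung (2.77, limma adjusted p = 1.86e-05), without the dip of Otx2 on cortex 22. Crx, the third member of the family, known from retina and pineal gland, lay between 3.88 and 4.51 on all arrays. The calls of Meis2 (0.77) and Meis1 (-1.16) were not stable: Meis2 lost its call without cortex 72, cortex 22, cortex 18, lung 22 or lung 18 (0.68 to 0.75), and Meis1 without any array other than cortex 18 (-0.88 to -1.32). Both calls were also lost with the most variable probe sets, and pan-endothelial shifting turned Meis1 to 0.09.

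The folate list had 0 of 6 called genes by limma (median -0.24, above 0 after pan-endothelial shifting), with the proton-coupled folate transporter Slc46a1 at 1.01 (adjusted p = 0.0994). At an unadjusted p under 0.05, 1 gene of this list was higher in cortex and 3 in lung. Slc46a1 passed without cortex 19 (1.26) and without lung 72 (1.31). Among 7 genes of the klotho and fibroblast growth factor receptor list, 4 rose in cortex (median 0.93). They were Fgf15 (3.30), Fgfr2 (2.26), Fgfr3 and the klotho relative Klb, which lay at 6.48 ± 0.40 in cortex and 5.55 ± 0.12 in lung. The call of Fgfr2 was lost without cortex 72, cortex 22, cortex 18 or lung 22 (2.09 to 2.25). Of 4 other chloride intracellular channel genes, Clic5 was higher in lung (-1.85, limma adjusted p = 0.00603) and the other 3 had no call (median -0.37, and 0.87 after pan-endothelial shifting, where Clic5 was not called).

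Genes listed with autotaxin were called in both directions, receptors and phosphatases alike. Of 12 measured genes of the lysophosphatidic acid list, 2 rose in cortex, 3 were higher in lung and 7 were not called (median -0.55, and 0.70 after pan-endothelial shifting). The list also holds the autotaxin relatives Enpp3, Enpp4, Enpp5 and Enpp6, none of them called. The lipid phosphatase Plpp2 (3.95) and the receptor Lpar1 (1.60) rose in cortex. The receptors Lpar4 (-1.54) and Lpar6 (-1.33) and the phosphatase Plpp1 were higher in lung. Lpar4 lost its call without cortex 72, cortex 18, lung 22 or lung 19 (-1.31 to -1.47), and after pan-endothelial shifting (-0.29).

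Marker lists of the remaining cell types were as follows, and their part in the marker levels was not tested. Of 10 genes of the motile cilia programme 1, the factor Rfx3 (1.28), rose in cortex (median 0.50), and without cortex 19 the count was 4. Of 6 Cajal-Retzius genes 1, Trp73 (1.96), rose (median 0.94), and without lung 72 or lung 18 the count was 2. Of 14 meningeal genes, 9 were higher in lung, led by Foxc2 (-4.72) and Col3a1 (-4.22), and 1, Zic1 (5.50), which is also expressed in dorsal neural tissue, was higher in cortex (median -1.53). Without cortex 22 the counts of this list were 6 in lung and 2 in cortex. The meningeal mean ranged from 6.72 to 7.33 in cortex and from 7.48 to 8.64 in lung.

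Of 5 erythroid genes 2 rose in cortex, the embryonic globins Hba-x (2.63) and Hbb-y (1.78), with a list median of 0.87. Of 8 genes of liver and yolk sac, where Ttr is also made, 0 were higher in cortex and 1, Ahsg (-1.08), was higher in lung, a call that ended without lung 19 (-0.94) and turned to 0.17 after pan-endothelial shifting. At an unadjusted p under 0.05 the limma counts were 0 in cortex and 2 in lung. All 8 lay below the array median on every cortex array, and the list median was -0.29, turning to 0.95 after pan-endothelial shifting. Of 14 lung epithelial genes 1, Sox9 (2.88), which is also a factor of neural progenitors, rose in cortex and 0 were called higher in lung (limma, median -0.57, and 0.68 after pan-endothelial shifting). Without lung 19 the count in lung was 1, and at an unadjusted p under 0.05 it was 3.

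The shift to one pan-endothelial mean raised the counts of several of these lists in cortex. It also raised the count over all 18193 genes, from 1888 to 5241, so a rise is not particular to these lists. The list counts became 7 of 10 for cilia, 5 of 6 for Cajal-Retzius genes, 4 of 5 for erythroid genes and 7 of 7 for macrophage genes. Calls in this setting followed the size of a difference more than the spread of a gene, so they are not firmer than those of the main fit. The hem list had 4 of 14 and the meninges 2 of 14, where 4 were then higher in lung. With numbers 19 and 18 left out, cilia and erythroid genes had 0 calls each in limma, the hem list 2 in lung and the meninges 5 in lung.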

How the data were processed

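RNA of sorted cells (15 to 30 ng) was amplified for Affymetrix mouse arrays, per the labels' protocols. The authors deposited log2 values per probe set, and the submitters' processing notes name RMA and affy, with versions not given in the sources used here. RMA compresses differences near its floor, so a fold against low values understates the difference, and there are no detection calls. Of 45037 probe sets that were not controls, 34945 named 1 gene, 932 several and 9160 were unnamed here. This gave 18193 genes. All 8 columns were used.

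The tissues were compared by linear models in limma 3.58.1 under R 4.3.3 (lmFit, then eBayes, without a block, Benjamini-Hochberg over all genes, two-sided), which was tested on simulated data. The labels do not say that equal numbers are 1 litter, and the main fit treated the samples as unpaired. Members and gene lists were chosen with earlier results of these data known. Named genes were the markers, the 2 called genes of each list with the largest difference towards each tissue (or the largest difference where none was called), and the 3 genes nearest in profile among genes spanning at least 1 log2 unit; others were named after their values were seen. Alternatives were a replicate block, median centring, a shift to one pan-endothelial mean, array weights, a filter at the lower quartile of probe set means (5.07), other probe sets and leaving out arrays.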

Additional observations from a re-analysis of the deposited data

Results flagged for a closer look

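Some values stood apart within a tissue, in that 1 array was separated from the nearest of the rest by a large share of the range of the 4 arrays (Dixon's criterion at 95%). Chance alone gives this in about 1 in 20 groups, and 12 of 134 groups of 4 arrays met it. The groups are not independent, since profile neighbours and named list genes were chosen from these values, so this rate does not apply directly. Otx2 on cortex 22 was 1 of the 12, with a gap of 0.855 of the range. Shisa7, chosen for a profile like that of Otx2, was low on the same array (0.87).

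On cortex 18, Csf1r (0.846), C1qb (0.858) and Ccl3 (0.907) were low. All were profile neighbours of Ttr, chosen on these same arrays. Ttr did not meet the criterion: its cortex 22 value lay between cortex 18 and the other arrays.

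In lung, Rspo3 was high on lung 72 (0.87), Slc4a10 was high on lung 18 (0.952), Otx1 was low on lung 18 (0.909) and Plpp2 was low on lung 22 (0.859). Lung 18 was also low in the list means of Cajal-Retzius genes (0.836), of meningeal genes (0.885) and of lysophosphatidic acid signalling (0.852).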

How the results depend on the processing

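Of 79 comparisons of a measured marker with its main value, 72 kept direction and side of the threshold. The shift to one pan-endothelial mean turned Kl to 0.62, called Clic6 (2.28) and gave 5378 called genes against 3291, with Ttr at rank 3 of the cortex ranges (the rank was added after seeing the data). It also turned Ahsg (0.17), Meis1 (0.09), Phkg1 (0.74), Sult2a8 (0.62) and F11 (0.80), none called there. P-values in this shifted setting followed the size of a difference more than the spread of a gene. Without numbers 19 and 18 in both tissues (2 against 2 arrays), 655 genes were called, and Ttr (5.73) and Otx2 (3.23) were not. Leaving out single arrays gave 4.40 to 6.32 for Ttr and -0.86 to -0.47 for Kl, and ranks of Ttr from 1 to 61. Deviations of same-numbered samples correlated at 0.335, -0.162, 0.009 and 0.307 (numbers 72, 22, 19 and 18). Those of different numbers correlated at -0.348 to 0.307. These values cannot settle whether equal numbers are 1 litter. With the sample number as a replicate block 3143 genes were called, with Ttr called (adjusted p = 0.0109). The block changed the call of 0 markers, but Meis1 (-1.16), Meis2 (0.77) and Fgfr2 (2.26) lost theirs and Ptprc (1.47) gained one. Folr1 has no value without dim genes, and Enpp2 none at all. Causes were not tested. With 4 arrays per tissue and no detection calls, low genes such as Folr1 and Kl have no measured floor.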

Other observations

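On the lung arrays, where Ttr was low, its values again were higher on 72 (6.73) and 19 (6.37) than on 22 (5.55) and 18 (5.12), the numbers that were high and low in cortex. A margin of at least 0.5 log2 units between these numbers held for 1778 genes in lung (9.77%), for 103 in cortex and for 15 in both, which is 14.6% of the cortex genes and 0.84% of the lung genes. Among the 15 were Ttr, Rspo2, Csf1r, Aif1 and Ptprc. Rspo2 read 8.75 on lung 72, 5.44 on lung 22, 7.22 on lung 19 and 5.10 on lung 18. One Ttr probe set, 1451580_a_at, did not show it and read 5.96 to 6.39 on all lung arrays.

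A margin of at least 1 log2 unit over the cortex arrays was reached by 8 genes, Ttr, Rspo1, Rspo2, Rspo3, Pf4, Calml4, Acot11 and Cryba4. The crystallin Cryba4 read 7.61 on cortex 72, 5.91 on cortex 22, 7.59 on cortex 19 and 4.72 on cortex 18, against 4.44 to 4.93 in lung. All of these were named after their values were seen.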
